A study of Arabidopsis thaliana with 6 samples.

Results

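A group of 10 COR, dehydrin and RD29 genes, which Arabidopsis thaliana switches on in cold and drought, was followed in 6 RNA-seq libraries. The genes were chosen by locus identifier from the 36917 genes counted: COR15A, COR15B, COR47, ERD10, RD29A, RD29B, KIN1, KIN2, COR413-PM1 and COR413IM1. Earlier results of these data were known when the group was chosen. Of the libraries, 3 came from fbn6-1 (replicates 1, 2 and 3), the T-DNA insertion line GK_159E10 in the Col-0 background, and 3 from Col-0 wild type (replicates 2, 3 and 4). FBN6 (AT5G19940) encodes FIBRILLIN6, a member of the plastid lipid-associated fibrillins, and the study asked which transcripts differ in its absence. The labels give plants aged 3 weeks as the source of both genotypes and name no organ. They were raised on soil in a greenhouse in long days (16 h light, 8 h dark) at a photon flux near 120 µmol per m2 and s. The labels name no cold, drought, high light or cadmium treatment for any of the 6. The mutant is 1 insertion line, and the labels do not say whether replicates were single plants, pools or separate sowings, so the p-values reflect variation among these libraries, part of which may be technical.

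Cold raises the CBF transcription factors, also called DREB1 factors, which bind the CRT/DRE element in the promoters of these genes. Abscisic acid and drought reach part of the same set through the ABRE element and its bZIP factors. The proteins are mostly hydrophilic and are thought to protect membranes and proteins when cells lose water. COR15A and COR15B act in the chloroplast stroma, COR47 and ERD10 are acidic dehydrins, and the COR413 proteins span membranes. In unstressed leaves the transcripts are usually scarce and some follow the circadian clock.

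Libraries held 8668956 to 12287197 counts, of which 3257770 to 4955128 fell on nuclear genes. FBN6 checked the labels: it had 7, 3 and 3 counts in fbn6-1 replicates 1, 2 and 3, against 1845, 1557 and 2201 in wild-type replicates 2, 3 and 4. The RNA had a leaf profile: 5 photosynthesis markers summed to 17540 to 18623 CPM (counts scaled to a common library size with TMM factors) in the mutant and 20242 to 21296 CPM in wild type. Root, flower and seed markers, 5 of each, stayed at or below 0.793 CPM per gene in every library, so those organs' defining genes were at or near 0. The lower leaf-marker sum moved with genotype, none of its 5 genes was called, and its part in the results was not tested.

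Of the 10 genes, 8 lie side by side as 4 pairs. The 500 bases before each start codon were read from the RefSeq sequence of TAIR10.1, whose nuclear chromosomes are those of TAIR10; the deposited files hold no coordinates. CRT/DRE was searched as ACCGAC or GCCGAC, ABRE as ACGTGGC or ACGTGTC, and the evening element, a clock-related motif, as AAAATATCT, each on both strands. One CRT/DRE match per gene is shown, because it is the motif through which the CBF factors reach this group. Within a pair, the matches printed are those whose 26 bases were most alike between the partners, the first such on a tie; each line runs 5′ to 3′ along the gene's own strand, with the 6 motif bases in capitals.
COR15A (chr2:17712218-17712243, minus strand): caatttcatgGCCGACctgctttttt
COR15B (chr2:17710124-17710149, minus strand): caacttgatgGCCGACctcttttttc
COR47 (chr1:7085918-7085943, minus strand): atattcatctACCGACttcaagaaat
ERD10 (chr1:7089371-7089396, minus strand): atattcatccACCGACcgaccgacgt
RD29A (chr5:21240566-21240591, plus strand): atagacatggACCGACtactaataat
RD29B (chr5:21236874-21236899, plus strand): ataaacgtggACCGACtaaaactaaa
KIN1 (chr5:5209803-5209828, plus strand): ataaatagctACCGACataaggcaaa
KIN2 (chr5:5211770-5211795, plus strand): ataaaaagctACCGACataaggcaaa
COR413-PM1 (chr2:6949667-6949692, plus strand): tttaatgtatACCGACataccctatg
COR413IM1 (chr1:10289910-10289935, minus strand): aattagttatGTCGGTaccaatgaaa

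The most alike sites of partners compared as follows, with the 6 motif bases counted among those shared. Of the 26 bases printed, KIN1 and KIN2 shared 25, at 179 and 186 bases before the start codon. COR15A and COR15B shared 21, at 267 and 266 bases. RD29A and RD29B shared 20, at 353 and 321 bases, and COR47 and ERD10 shared 18, at 269 and 279 bases. Since the sites were picked for likeness, no test goes with these values. Not shown are a match of COR15A at 444 bases, matches of RD29A at 303, 246 and 209 bases, and matches of ERD10 at 275 and 271 bases. In COR413IM1 the motif stood on the opposite strand, so its reverse complement GTCGGT is printed. The sites shown for COR15A, COR15B, COR47, ERD10, KIN1 and KIN2 lie between the annotated gene start and the start codon, and those of RD29A, RD29B, COR413-PM1 and COR413IM1 lie upstream of the annotated gene.

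All 10 genes had at least 1 CRT/DRE match in the 500 bases, against 12.9% of 27443 protein-coding nuclear genes with the same window. RD29A had 4 matches, ERD10 had 3 overlapping ones and COR15A had 2, and 2 or more occurred in 1.30% of all windows. ABRE matched in 6 of the 10 genes, against 9.49% of all: RD29B had 3, KIN2 had 2, COR413-PM1 had 2 that overlap on opposite strands, and COR15A, RD29A and KIN1 had 1 each. The evening element matched in COR15A, COR15B, KIN2 and COR413-PM1, against 4.02% of all. These are matches of letters, not measured binding, and the genes were chosen as a known cold-response group.

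**Figure D1:**
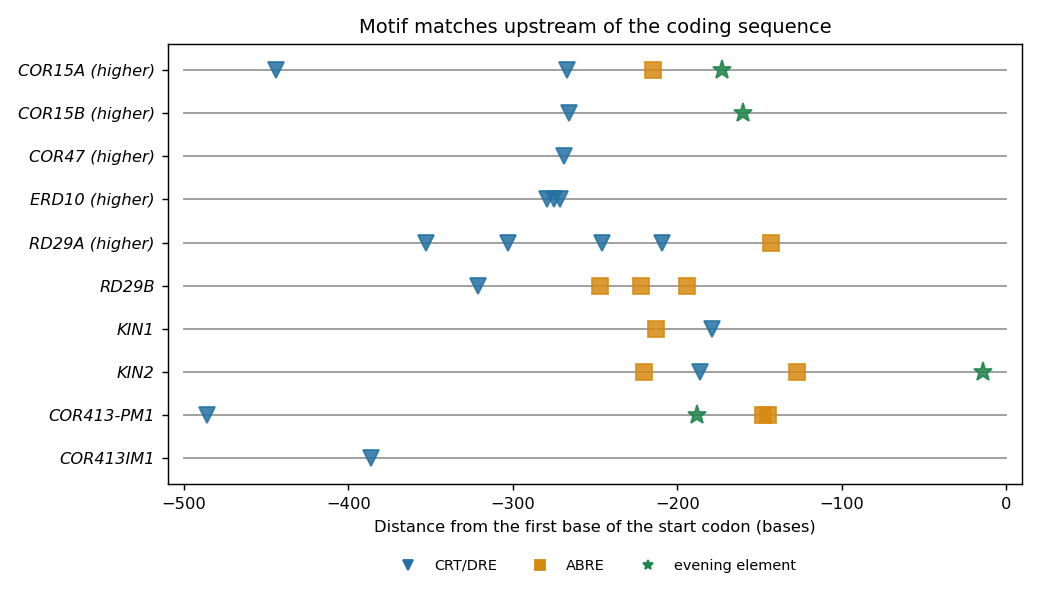
Matches of CRT/DRE, ABRE and the evening element in the 500 bases before the start codon of the 10 genes; the x axis is the distance from the start codon in bases, and genes called higher in fbn6-1 are marked. Every gene has a CRT/DRE match, those called higher and those not.

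Differences between fbn6-1 and wild type were tested on counts with edgeR's quasi-likelihood test across 16584 genes, with Benjamini-Hochberg adjustment over all of them; a gene was called at an adjusted p under 0.05. Enough counts for the test were found for 8 of the 10 genes, and RD29B and KIN1 were too low. The mutant had 5 of them called higher (COR15A, COR15B, COR47, ERD10 and RD29A) and 0 lower, while KIN2, COR413-PM1 and COR413IM1 were not called. The count of lower genes was also 0 at an unadjusted p under 0.05, with DESeq2 and with limma-voom. Among all genes tested 1.48% were called higher and 2.34% lower, 3.82% in all. In the 5 called genes every mutant library lay above every wild-type library, as in 10.9% of all genes tested. The rise was 2.16- to 3.97-fold in mean level and was uneven among the mutant libraries: replicate 3 was the highest of the 6 libraries in all 8 tested genes, which was so for 17.4% of all genes tested. In bulk RNA, more cells expressing a gene and more RNA per cell cannot be told apart.

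COR15A (AT2G42540, chr2:17710441-17712330, minus strand), whose product is imported into the chloroplast and protects its membranes in freezing, rose with the smallest p of the group. It stood at 18.2, 22.1 and 36.7 CPM in fbn6-1 replicates 1, 2 and 3, against 7.32, 9.68 and 8.42 CPM in wild-type replicates 2, 3 and 4. All 3 mutant libraries lay above all 3 wild-type libraries, and mutant replicate 3 was the highest. Means were 25.7 ± 9.77 CPM in fbn6-1 and 8.47 ± 1.18 CPM in wild type (SD, n = 3 each), and the log2 fold change was 1.59 with an SE of 0.23 (adjusted p = 0.00132, edgeR).

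COR15B (AT2G42530, chr2:17708593-17710433, minus strand) encodes the close relative of COR15A and starts 7 bases beyond its end. Its levels were 3.52, 3.61 and 8.39 CPM in fbn6-1 replicates 1, 2 and 3, against 0.627, 1.79 and 1.49 CPM in wild-type replicates 2, 3 and 4. The groups did not overlap, and mutant replicate 3 stood at more than 2 times the other mutant libraries. The log2 fold change was 1.95 (SE 0.41, adjusted p = 0.0166, edgeR), from means of 5.17 ± 2.78 CPM in fbn6-1 and 1.30 ± 0.605 CPM in wild type (SD, n = 3 each). The gene rests on 34 to 74 counts per mutant library and 6 to 17 per wild-type library. Wild-type replicate 2, with 6 counts, lay under the minimum count of 10 used to select genes for the test. COR15B therefore passed only with its mutant libraries. Its annotated end overlaps AT2G42520 on the opposite strand by 468 bases; that gene had 45, 27 and 21 counts in the mutant, against 53, 17 and 58 in wild type, and was not called (log2 fold change -0.56, adjusted p = 0.386, edgeR). Whether counting used strand is not given in the sources used here, so reads of the 2 genes may be mixed.

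The dehydrin genes COR47 and ERD10 rose by similar amounts. COR47 (AT1G20440, chr1:7084409-7086873, minus strand) stood at 33.3, 34.1 and 80.0 CPM in fbn6-1 replicates 1, 2 and 3, against 21.2, 18.9 and 28.0 CPM in wild-type replicates 2, 3 and 4. ERD10 (AT1G20450, chr1:7087903-7089606, minus strand) stood at 52.5, 69.7 and 120 CPM in the mutant, against 28.8, 48.9 and 34.0 CPM in wild type. In both genes the groups did not overlap, but mutant replicates 1 and 2 of COR47, and mutant replicate 1 of ERD10, were close to the highest wild-type library. The log2 fold change was 1.09 for COR47 (SE 0.28, adjusted p = 0.0415) and 1.12 for ERD10 (SE 0.25, adjusted p = 0.0220, both edgeR). Means were 49.1 ± 26.8 CPM in fbn6-1 and 22.7 ± 4.72 CPM in wild type for COR47, and 80.8 ± 35.2 CPM in fbn6-1 and 37.2 ± 10.4 CPM in wild type for ERD10 (SD, n = 3 each).

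RD29A (AT5G52310, chr5:21240717-21243644, plus strand), listed as LTI78 in RefSeq, encodes a hydrophilic protein whose promoter is a widely used stress reporter. It had 9.66, 11.6 and 39.8 CPM in fbn6-1 replicates 1, 2 and 3, against 4.91, 8.25 and 3.51 CPM in wild-type replicates 2, 3 and 4. Replicate 3 alone was 7.16 times the wild-type mean, while mutant replicates 1 and 2 were 1.74 and 2.08 times that mean. The log2 fold change was 1.88 (SE 0.46, adjusted p = 0.0387, edgeR), with means of 20.3 ± 16.9 CPM in fbn6-1 and 5.56 ± 2.43 CPM in wild type (SD, n = 3 each). RD29B (AT5G52300, chr5:21237021-21239531, plus strand; LTI65), its neighbour, which is best known for its response to abscisic acid, stayed near the lower limit of detection. It had 5, 1 and 1 counts in fbn6-1 and 3, 1 and 2 in wild type, so a difference was not detectable at this depth.

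**Figure D2:**
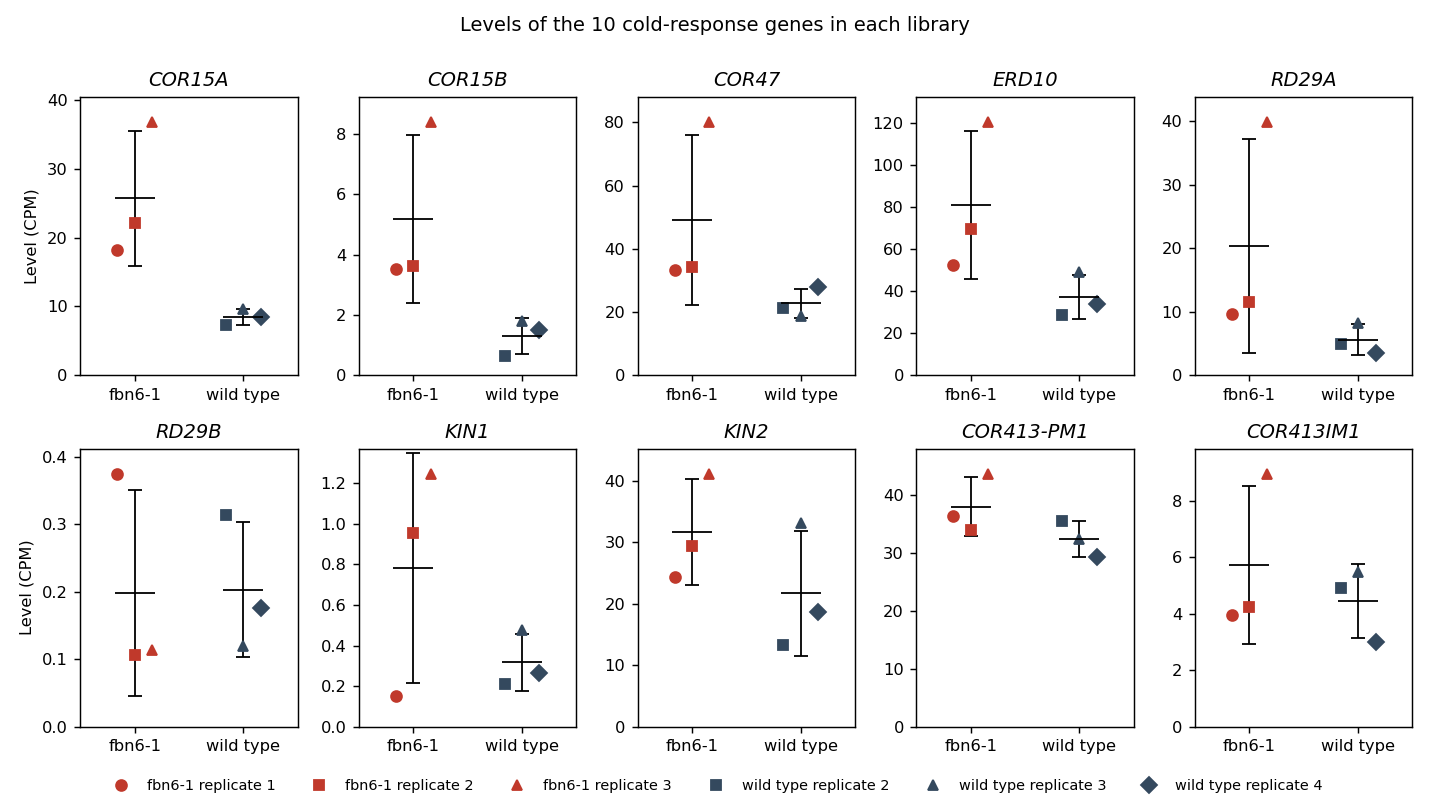
Level in CPM of each of the 10 genes in the 3 fbn6-1 libraries and the 3 wild-type libraries; bars are mean ± SD, and each panel has its own axis from 0. The groups do not overlap in COR15A, COR15B, COR47, ERD10 and RD29A, and fbn6-1 replicate 3 is the highest library in every panel but that of RD29B.

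KIN1 and KIN2 encode small hydrophilic proteins and are near copies of each other. The annotated coding sequences, 201 bases each with the exons joined, were 95.0% identical and differed at 10 bases, which are in capitals; they are shown because reads from such stretches may fit both genes.
KIN1 (AT5G15960, coding span chr5:5209992-5210473, plus strand): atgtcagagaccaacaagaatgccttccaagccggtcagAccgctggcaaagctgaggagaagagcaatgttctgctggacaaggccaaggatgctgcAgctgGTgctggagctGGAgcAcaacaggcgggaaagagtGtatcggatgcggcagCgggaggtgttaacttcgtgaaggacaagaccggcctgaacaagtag
KIN2 (AT5G15970, coding span chr5:5211966-5212441, plus strand): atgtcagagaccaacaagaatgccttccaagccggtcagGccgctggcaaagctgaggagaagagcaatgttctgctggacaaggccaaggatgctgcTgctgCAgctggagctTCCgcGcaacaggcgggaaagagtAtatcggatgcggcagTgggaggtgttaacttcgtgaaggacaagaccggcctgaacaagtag

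The annotated genes span chr5:5209717-5210826 for KIN1 and chr5:5211719-5212743 for KIN2. Their transcripts shared an unbroken run of 58 bases, and how reads with several matches were counted is not given in the sources used here. KIN2 had 24.3, 29.4 and 41.1 CPM in fbn6-1 replicates 1, 2 and 3, against 13.3, 33.1 and 18.7 CPM in wild-type replicates 2, 3 and 4. The groups overlapped, since wild-type replicate 3 exceeded mutant replicates 1 and 2. KIN2 was not called (log2 fold change 0.55, SE 0.26, adjusted p = 0.285, edgeR), but was without wild-type replicate 3 (log2 fold change 0.96, adjusted p = 0.00316). The value moved the other way without wild-type replicate 2 (0.29, adjusted p = 0.614) and without mutant replicate 3 (0.32, adjusted p = 0.667). KIN1 held 2, 9 and 11 counts in fbn6-1 and 2, 4 and 3 in wild type; it was too low to test. Mutant replicate 1, the deepest library, had the lowest CPM of the 6, while mutant replicates 2 and 3, at 0.956 and 1.25 CPM, lay above the wild-type libraries (0.209, 0.478 and 0.263 CPM). With the counts of KIN1 and KIN2 summed, the log2 fold change was 0.56 (adjusted p = 0.274, edgeR).

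The 2 COR413 genes were not called. COR413-PM1 (AT2G15970, chr2:6949851-6951192, plus strand), a protein of the plasma membrane, had 36.3, 33.9 and 43.6 CPM in fbn6-1 replicates 1, 2 and 3, against 35.4, 32.4 and 29.3 CPM in wild-type replicates 2, 3 and 4. Its log2 fold change was 0.23 (SE 0.12, adjusted p = 0.357, edgeR). COR413IM1 (AT1G29395, chr1:10288129-10289666, minus strand), a protein of the inner chloroplast envelope, had 3.97, 4.25 and 8.95 CPM in the mutant, against 4.91, 5.50 and 2.98 CPM in wild type. Here mutant replicates 1 and 2 lay within the wild-type range and only mutant replicate 3 stood above it; the log2 fold change was 0.35 (SE 0.31, adjusted p = 0.632, edgeR), and -0.10 without that library.

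Mutant replicate 3 set much of the size of the differences in this group. It was at least 1.5 times each of the other mutant libraries in 6 of the 8 tested genes (COR15A, COR15B, COR47, ERD10, RD29A and COR413IM1), against 2.91% of all genes tested. Its ratio to the mean of the other 2 mutant libraries was 3.75 for RD29A, 2.38 for COR47, 2.35 for COR15B, 2.18 for COR413IM1, 1.97 for ERD10 and 1.82 for COR15A. This library had the lowest total, 8668956 counts, and a plastid share of 62.1% of counts, against 59.4% and 59.9% in mutant replicates 1 and 2 and 62.2%, 60.4% and 59.5% in wild-type replicates 2, 3 and 4. The part of depth or plastid share in the result was not tested. Over all genes it was wild-type replicate 3 that differed most from its own group. Its chi-square per gene was 13.853 against wild-type replicate 2 and 12.966 against wild-type replicate 4. The value was 4.527 between wild-type replicates 2 and 4, and 4.653 to 5.51 among the mutant libraries. Without wild-type replicate 3, 1237 genes were called, against 633 with all 6 libraries. Why that library differed was not tested.

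**Figure D3:**
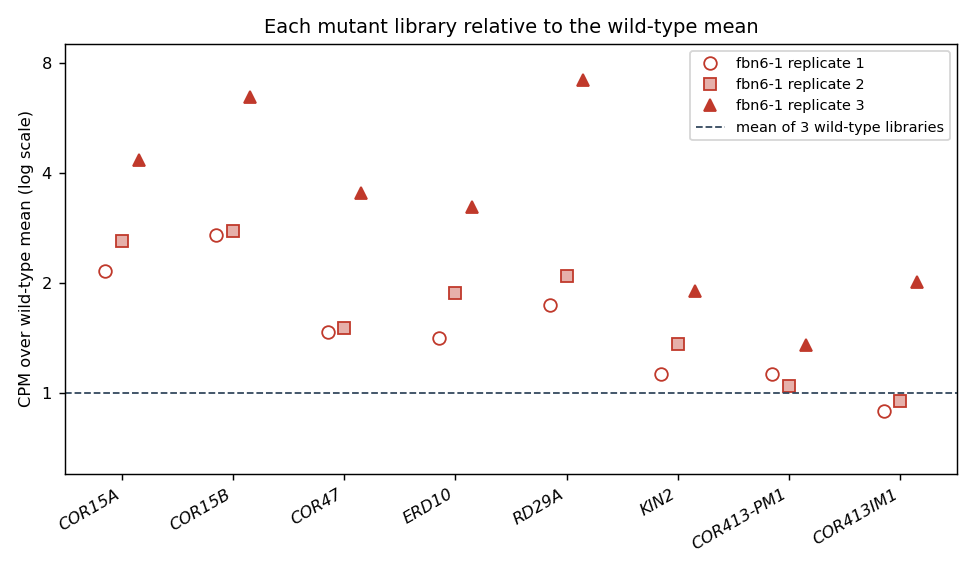
CPM of each fbn6-1 library divided by the mean of the 3 wild-type libraries, on a log axis, for the 8 tested genes. Replicate 3 is the highest in all 8, at 7.16 for RD29A and 6.43 for COR15B, while replicates 1 and 2 lie between 1.41 and 2.77 in the 5 called genes.

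Without mutant replicate 3 the direction of the 5 called genes held, and COR15A alone remained called. Its log2 fold change was then 1.25 (SE 0.16, adjusted p = 0.00304, edgeR). The others were 1.45 for COR15B (adjusted p = 0.0830), 0.96 for RD29A (adjusted p = 0.130), 0.72 for ERD10 (adjusted p = 0.0992) and 0.57 for COR47 (adjusted p = 0.107). COR15A was also the only called gene without wild-type replicate 2 and without wild-type replicate 4. It was called in every fit with 1 library left out, with adjusted p of 0.000174 to 0.0113. ERD10 was also lost without mutant replicate 2 (adjusted p = 0.0597).

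Set against the share of all tested genes called higher in the same fit, the count of the group varied with the library left out. It was 5 without mutant replicate 1 (0.653% of all tested genes), 4 without mutant replicate 2 (0.493%) and 1 without mutant replicate 3 (0.703%). It was 1 without wild-type replicate 2 (0.792%), 6 without wild-type replicate 3 (2.7%), where KIN2 joined, and 1 without wild-type replicate 4 (0.758%). Calling also depended on the tool. DESeq2 called 2, COR15A and COR15B (adjusted p = 9.30e-09 and 0.000603), against 1.22% of all genes, but not COR47, ERD10 and RD29A (adjusted p = 0.207, 0.135 and 0.170). Limma-voom called 3, COR15A, COR15B and ERD10 (1.42% of all), and edgeR with robust dispersion called 2, COR15A and COR15B (1.68%). With no low-count filter 6 were called, KIN2 included (1.75%).

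**Figure D4:**
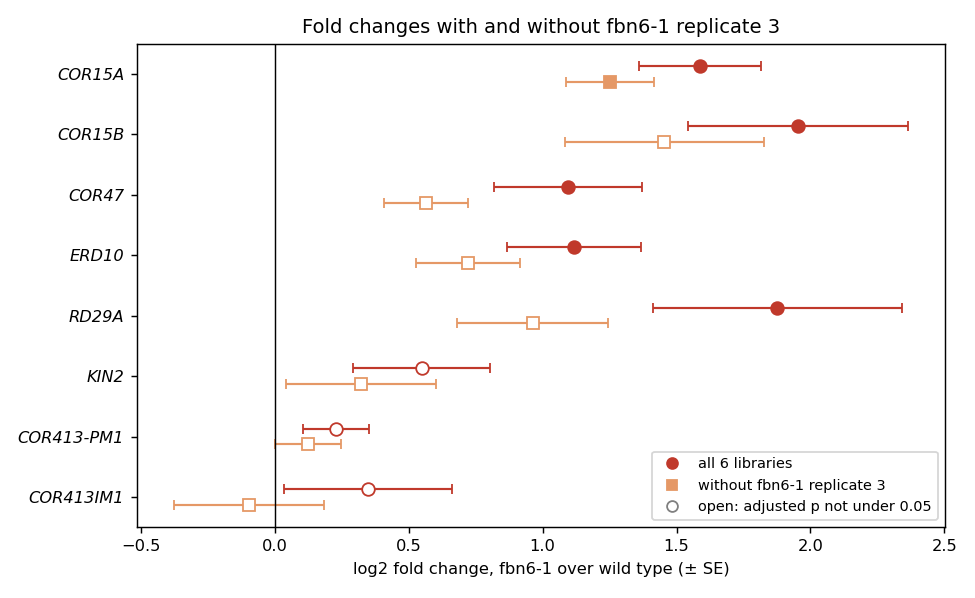
log2 fold change of fbn6-1 over wild type, ± SE, for the 8 tested genes, with all 6 libraries and without fbn6-1 replicate 3; filled symbols have an adjusted p under 0.05. COR15A keeps its call, and RD29A shows the largest drop, to 0.96 without replicate 3, against 1.88 with all libraries.

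Levels between genes were compared as CPM per kilobase of annotated exon. In fbn6-1 the order was ERD10 (49.7), KIN2 (42.2), COR413-PM1 (34.9), COR47 (21.2), COR15A (16.2), RD29A (7.64), COR413IM1 (5.61), COR15B (3.27), KIN1 (0.946) and RD29B (0.0912). The ranges of neighbours in that order overlapped except between COR15B and KIN1 and between KIN1 and RD29B. In wild type COR413-PM1 (29.8), KIN2 (28.9) and ERD10 (22.9) led and overlapped, followed by COR47 (9.78), COR15A (5.35), COR413IM1 (4.37), RD29A (2.09), COR15B (0.823), KIN1 (0.382) and RD29B (0.0934). Further down, neighbours overlapped between COR15A and COR413IM1, COR413IM1 and RD29A, and COR15B and KIN1. The genes therefore spanned a wide range in both genotypes, with COR15B well under COR15A although they have the same annotated exon length of 1584 bases.

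Whether partners of a pair changed unequally was asked with the log2 ratio of their counts within each library, which does not depend on scaling. For COR15A over COR15B the ratio was 2.37, 2.61 and 2.13 in fbn6-1 replicates 1, 2 and 3, against 3.54, 2.43 and 2.50 in wild-type replicates 2, 3 and 4. It was 0.45 lower in the mutant, with means of 2.37 in fbn6-1 and 2.82 in wild type (two-sided exact permutation test, p = 0.4). Mutant replicates 1 and 3 lay below every wild-type library, and mutant replicate 2 lay within the wild-type range. For COR47 over ERD10 the ratio averaged -0.76 ± 0.24 in fbn6-1 and -0.70 ± 0.59 in wild type (SD, n = 3 each; exact permutation p = 0.9). RD29A over RD29B averaged 6.64 ± 1.89 in fbn6-1 and 4.80 ± 1.15 in wild type (exact permutation p = 0.2), but rested on 1 to 5 RD29B counts per library. KIN1 over KIN2 averaged -5.78 ± 1.36 in fbn6-1 and -6.08 ± 0.08 in wild type (exact permutation p = 1.0), but rested on 2 to 11 KIN1 counts per library. With 3 against 3 libraries the smallest possible p is 0.1, so none could pass; adjusted over the 4 pairs the values were 0.8 to 1.0.

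Related genes were taken as 5 lists holding 66 genes, of which 49 were tested. Of these 2 were called higher and 5 lower, against 1.48% and 2.34% of all genes tested. The median log2 fold change of the 49 was 0.02. It was 0.00 for all genes tested and 1.11 for the 8 tested COR, dehydrin and RD29 genes. The group and the lists were chosen with earlier results of these data known, so this contrast carries no test. Of the other dehydrins, 0 of 3 tested of 8 were called by edgeR, where 1.48% of all genes tested were called higher, with RAB18 at 0.29 (SE 0.30, adjusted p = 0.681, edgeR) and HIRD11 at -0.30 (SE 0.13, adjusted p = 0.239), and the other 5 were too low to test. Of the other COR413 genes, 0 of 3 tested of 4 were called by edgeR; COR413-PM2 stood at -0.47 (SE 0.15, adjusted p = 0.0969) and AT2G23680 at 0.50 (SE 0.31, adjusted p = 0.437). At an unadjusted p under 0.05, HIRD11 and COR413-PM2 were lower and 0 genes of these lists were higher, and DESeq2 and limma-voom called 0 in both.

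The regulators of the cold response were not called by edgeR, 0 of 12 tested of 14, against 1.48% higher and 2.34% lower of all genes tested. At such shares 0 calls among 12 genes would be common. Their median log2 fold change was 0.25. DESeq2 and limma-voom also called 0, and at an unadjusted p under 0.05 edgeR had 2 higher and 0 lower. CBF3 (DREB1A in RefSeq) was scarce, with 6, 8 and 16 counts in fbn6-1 replicates 1, 2 and 3, against 9, 11 and 24 counts in wild-type replicates 2, 3 and 4. Its log2 fold change was -0.59 (SE 0.49, adjusted p = 0.590, edgeR), and the groups overlapped. With 1 library left out it lay between -1.22 (without mutant replicate 3) and -0.16 (without mutant replicate 1). CBF1 (0.52, SE 0.46, adjusted p = 0.628) and CBF2 (0.37, SE 0.48, adjusted p = 0.766), which were added after their values were seen, lay on the other side of 0 and were not called either. ZAT10, a zinc finger repressor raised by many stresses, stood at 20.1, 32.6 and 20.2 CPM in fbn6-1, against 7.84, 18.4 and 12.9 CPM in wild type (log2 fold change 0.90, SE 0.25, adjusted p = 0.0594). The groups of ZAT10 did not overlap, and its highest mutant library was replicate 2, not replicate 3; it was called under library-size scaling (adjusted p = 0.0297) and without wild-type replicate 3 (adjusted p = 0.00160).

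Of 18 other genes linked to cold 13 were tested, 2 were higher and 2 lower, against 1.48% and 2.34% of all genes tested. GOLS3, a galactinol synthase of raffinose synthesis induced by cold, had 28, 26 and 49 counts in fbn6-1 replicates 1, 2 and 3, against 6, 11 and 5 counts in wild-type replicates 2, 3 and 4. It rose 4.37-fold in mean CPM, or by 2.14 on the log2 scale (SE 0.47, adjusted p = 0.0202, edgeR), with mutant replicate 3 again the highest. Wild-type replicates 2 and 4 lay under the minimum count of 10 used to select genes for the test. GOLS3 was therefore tested only through its mutant libraries. The call ended without mutant replicate 3 (1.65, adjusted p = 0.108), mutant replicate 2, wild-type replicate 2 or wild-type replicate 4. TIL, a temperature-induced lipocalin of membranes, rose by 0.63 (SE 0.13, adjusted p = 0.0185), with 41.9, 49.8 and 43.2 CPM in the mutant, against 27.1, 35.5 and 25.1 CPM in wild type, and here replicate 3 did not stand apart. Leaving out any of the same 4 libraries ended this call as well, with adjusted p of 0.0599 to 0.110. SUS1, a sucrose synthase, fell by 1.15 (SE 0.15, adjusted p = 0.000590) and SFR2, a galactolipid-remodelling enzyme of the chloroplast envelope needed for freezing tolerance, fell by 0.48 (SE 0.10, adjusted p = 0.0159). SUS1 was called whichever library was left out, while SFR2 was called in the fits without wild-type replicate 3 and without wild-type replicate 4 and in none of the other 4; under library-size scaling SFR2 was not called (adjusted p = 0.0891). The largest differences among those not called were ADH1 (0.56, adjusted p = 0.575) and LEA14 (0.51, adjusted p = 0.230).

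In the abscisic acid and drought list, 0 of 18 tested genes of 22 were called higher by edgeR and 3 were lower, against 1.48% and 2.34% of all genes tested. DESeq2 called 0 higher and 2 lower, limma-voom 0 and 3, and at an unadjusted p under 0.05 edgeR had 1 higher and 3 lower. RD26, a NAC transcription factor, had 7.79, 6.27 and 11.4 CPM in fbn6-1 replicates 1, 2 and 3, against 16.4, 12.9 and 19.5 CPM in wild-type replicates 2, 3 and 4. Every mutant library lay below every wild-type library, and the log2 fold change was -0.96 (SE 0.21, adjusted p = 0.0191, edgeR). ERD1, a chloroplast Clp protease regulator, fell by 0.50 (SE 0.12, adjusted p = 0.0337), and RD20, a caleosin, fell by 0.49 (SE 0.12, adjusted p = 0.0394); under library-size scaling neither was called. HAI1 (-0.62, adjusted p = 0.377) and HAI2 (-0.55, adjusted p = 0.514), phosphatases induced by abscisic acid, were not called. Each of the 3 lower genes lost its call without at least 1 library: RD26 was called without mutant replicate 3 and without wild-type replicate 3, ERD1 in those same fits, and RD20 without wild-type replicate 3.

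**Figure D5:**
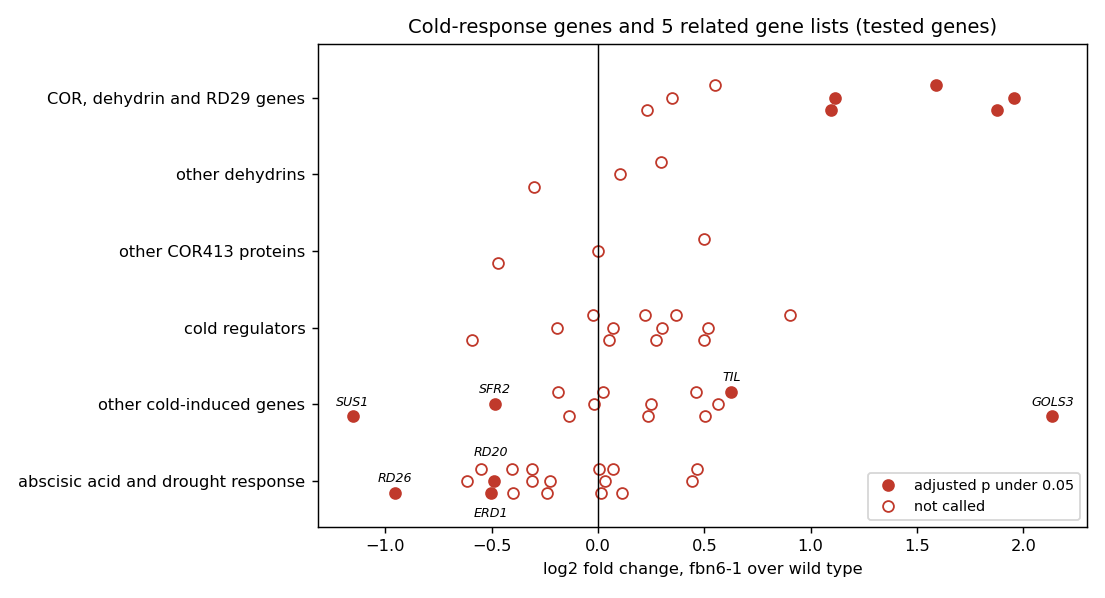
log2 fold change of fbn6-1 over wild type for the tested genes among the COR, dehydrin and RD29 genes and in 5 related lists; filled points have an adjusted p under 0.05. In the first row 5 of 8 are called higher, against GOLS3 and TIL as the higher genes of the other lists. SUS1 and SFR2 are lower among the other cold-induced genes, and RD26, ERD1 and RD20 are lower in the abscisic acid and drought list.

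The pattern over the 6 libraries was summarised as the mean of the standardised log2 CPM of the 8 tested genes: 0.08, 0.24 and 1.59 in fbn6-1 replicates 1, 2 and 3, and -0.82, -0.22 and -0.86 in wild-type replicates 2, 3 and 4. RD29A followed the mean of the other 7 most closely (Pearson r = 0.99 over 6 libraries) and COR413IM1 least (r = 0.72). Among 9888 other genes that averaged 5 CPM or more, the 5 most alike were AT1G13360 (r = 0.997), AT5G58160, AT5G44660, AT4G30990 and AT2G02455 (r from 0.989 down), and 1.36% had r over 0.9. None of these 5 was called: AT1G13360 had 20.1, 20.1 and 26.9 CPM in fbn6-1, against 16.9, 18.9 and 16.5 CPM in wild type (log2 fold change 0.36, adjusted p = 0.188, edgeR). With 6 libraries that differ in depth, such likeness is a description and carries no test.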

How the data were processed

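For each library the authors deposited a file of raw gene counts. The submitters' processing notes name TAIR10, featureCounts, TopHat2 2.1.1, FastQC and Trimmomatic; it is not given in the sources used here which settings, annotation release or strand mode applied. The members and lists were chosen with earlier results of these data known. Counts were tested with edgeR 4.0.16 (R 4.3.3; TMM, filterByExpr with minimum count 10 and minimum total 15, quasi-likelihood test, two-sided), on 16584 of 36917 genes. CPM is counts over the TMM-scaled library size; the SE of a log2 fold change is its size divided by the square root of the F statistic. The common biological coefficient of variation was 0.124. Alternatives were RLE and library-size scaling, DESeq2 1.42.0, limma-voom 3.58.1, other filters, robust dispersion, a replicate block, no organelle genes, summed pair counts, and each library left out. Named genes are all 10 members, the called genes of each list (up to 5) with the 2 largest differences not called, and the 5 most alike genes. On simulated counts with 200 of 16347 genes changed, recovery was 81.0% at a log2 change of 1 and 100.0% at 2, with 2 false calls of 178. Every simulated gene had the same coefficient of variation, 0.124, and no library stood apart. These rates therefore need not hold for genes with a wider spread, such as the members with a high mutant replicate 3. All 97 listed identifiers occurred in the files. RefSeq (TAIR10.1) gave names, exon lengths and sequences, read with Biopython 1.88 for pair identity.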

Additional observations from a re-analysis of the deposited data

How the results depend on the processing

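The number of COR, dehydrin and RD29 genes called higher was 5, and 2 with DESeq2, 2 with robust dispersion and 3 with limma-voom; with 1 library left out it ranged from 1 to 6, and the number called lower was 0 in every fit (0 to 0 with 1 library left out). With robust dispersion COR47, ERD10 and RD29A had adjusted p of 0.324, 0.263 and 0.338, and the cause was not tested. COR15A kept its call in all 15 alternative fits that tested it on its own. The summed counts of COR15A and COR15B were called too (log2 fold change 1.65, adjusted p = 0.00138, edgeR). The log2 fold change of COR413IM1 ranged from -0.10 to 0.58 with 1 library left out.

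All genes called numbered 633, and 1232 with no low-count filter, 191 with the replicate block and 272 to 1237 with 1 library left out. Library-size scaling called 508 higher and 199 lower, against 245 and 388 with TMM, and moved the median of all genes to 0.13. The TMM factors were 1.09, 1.04 and 1.02 in fbn6-1 replicates 1, 2 and 3, against 0.922, 0.949 and 0.998 in wild-type replicates 2, 3 and 4. Every mutant factor lay above every wild-type factor, so the scaling moved with genotype. Related genes called higher numbered 2, and 5 with no low-count filter, 1 with the replicate block and 0 to 3 with 1 library left out; those called lower numbered 5, and 2 with library-size scaling, 1 with the replicate block and 1 to 8 with 1 library left out.

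The replicate block could compare genotypes only within numbers 2 and 3, which occur in both. Mutant replicate 1 and wild-type replicate 4 each had a block of their own and did not inform the difference. Same-numbered libraries deviated together by a correlation of -0.04 and 0.10, so the numbers do not show pairing. The 5 members called were also called in the block fit, where 73 of 16584 tested genes were called higher. That fit rests on replicates 2 and 3 of each genotype, the high mutant replicate 3 included. With 1 library left out, the difference of the pair ratios ranged from -0.65 to -0.09 for COR15A over COR15B, -0.40 to 0.15 for COR47 over ERD10, 0.93 to 2.81 for RD29A over RD29B and -0.11 to 1.09 for KIN1 over KIN2. Depth limits KIN1 and RD29B, with 1 to 11 counts per library.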
